A study of Mus musculus with 16 samples.

Results

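The 34 type I interferon-stimulated antiviral genes were followed here in bone marrow, in samples labelled MSC and in tumors of mice that carried either a wild-type (WT) or a K74R form of a KLF gene. They were the genes of the count table whose identifiers matched 34 listed symbols, out of 55536 genes, and the matching used no expression value. K74R puts arginine in place of lysine. Which KLF gene it is the labels do not say, so no transcript checks the genotype. They give the genotypes as KLF WT and KLF K74R, and call the K74R samples KO in their titles. Bone marrow was taken from WT and K74R animals with 3 libraries each, MSC with 2 each, and tumors with 3 each. The tumors, of at most 1000 mm3, were grown from the MC38 line, a colon adenocarcinoma of the mouse, so a tumor can hold cells of that line beside cells of the host. The sources used here do not give the age, strain or pooling of animals, the meaning of MSC or how those cells were obtained. They also do not say whether replicates came from separate animals, and p-values therefore cover the spread between libraries, which may be technical.

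Type I interferons are secreted when a cell detects viral nucleic acid. They act through the receptor IFNAR and the kinases JAK1 and TYK2 to assemble a complex, ISGF3, which contains STAT2 and IRF9 and binds the interferon-stimulated response element (ISRE) of target genes. The targets include the sensors and transcription factors of the pathway itself, which makes the response self-amplifying, and effectors that degrade RNA, block translation, deplete nucleotides or hold virions at membranes. Many of them also keep a basal level without infection, set by constant low interferon signalling and by cell type.

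Several of the genes lie in clusters of the genome (GRCm38, GENCODE release M21). Ifit2, Ifit3, Ifit3b and Ifit1 span bases 34550694 to 34650009 of chromosome 19. Oas2, Oas3 and Oas1a span 120730333 to 120907521 of chromosome 5, with Oasl2 and Oasl1 on the same chromosome between 114896936 and 114937915. Rsad2 (26442746 to 26456452) and Cmpk2 (26469204 to 26479837) are neighbours on chromosome 12, and Mx1 and Mx2 are both on chromosome 16. Promoter windows from RefSeq (GRCm38.p6), 250 bases before to 50 after a gene's start, matched 25 of the 34 genes. Dhx58, Zbp1, Usp18, Oas2, Mx1, Mx2, Rtp4, Ifi27l2a and Parp14 had no entry in that table.

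The ISRE core, searched as GAAANNGAAA on both strands, was present in the windows of 13 of the 25 genes (52%), against 1079 of 27025 genes in all (3.99%). The 13 genes were Stat2, Ifih1, Isg15, Ifit1, Ifit3, Ifit3b, Oas1a, Oas3, Rsad2, Eif2ak2, Bst2, Ifitm3 and Trim30a. The gamma-activated site TTCNNNGAA, which reads the same on both strands, was present in 8 of the 25 (32%), against 9.55% of all genes, and it overlapped an ISRE core in 2 of them, Bst2 and Ifitm3. A match is a description of the letters in these 300 bases and no evidence of binding. The 6 windows printed here belong to the genes on which the comparisons between tissues turn, Isg15 and Rsad2 from the group highest in bone marrow, Bst2 from the group highest in tumors and Samhd1, which has no ISRE core in its window, and to Ifit3 and Ifit3b, which share much of their exon sequence. Their positions are Isg15 (chr4:156200769-156201068, minus strand), Rsad2 (chr12:26456403-26456702, minus strand), Bst2 (chr8:71537423-71537722, minus strand), Samhd1 (chr2:157135047-157135346, minus strand), Ifit3 (chr19:34583279-34583578, plus strand) and Ifit3b (chr19:34607707-34608006, plus strand). Each is written 5′ to 3′ on the gene's strand, and capitals mark ISRE core matches, of which Isg15 has 3 that overlap.
Isg15: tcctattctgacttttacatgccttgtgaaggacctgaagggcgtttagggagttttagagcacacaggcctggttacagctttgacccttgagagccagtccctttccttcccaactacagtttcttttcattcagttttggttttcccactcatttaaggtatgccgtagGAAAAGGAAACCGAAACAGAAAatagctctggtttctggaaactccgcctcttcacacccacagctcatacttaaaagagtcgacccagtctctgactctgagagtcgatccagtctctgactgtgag
Rsad2: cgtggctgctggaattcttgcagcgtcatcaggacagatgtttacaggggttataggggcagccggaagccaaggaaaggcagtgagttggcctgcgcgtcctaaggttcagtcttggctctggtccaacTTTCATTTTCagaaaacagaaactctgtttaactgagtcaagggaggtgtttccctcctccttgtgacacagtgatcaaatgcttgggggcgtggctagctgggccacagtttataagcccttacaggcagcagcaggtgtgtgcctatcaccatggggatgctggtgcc
Bst2: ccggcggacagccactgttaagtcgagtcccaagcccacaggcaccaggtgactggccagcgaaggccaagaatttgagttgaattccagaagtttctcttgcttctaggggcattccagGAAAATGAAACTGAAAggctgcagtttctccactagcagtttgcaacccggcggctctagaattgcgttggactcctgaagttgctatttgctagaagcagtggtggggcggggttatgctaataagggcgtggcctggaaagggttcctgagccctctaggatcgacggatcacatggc
Samhd1: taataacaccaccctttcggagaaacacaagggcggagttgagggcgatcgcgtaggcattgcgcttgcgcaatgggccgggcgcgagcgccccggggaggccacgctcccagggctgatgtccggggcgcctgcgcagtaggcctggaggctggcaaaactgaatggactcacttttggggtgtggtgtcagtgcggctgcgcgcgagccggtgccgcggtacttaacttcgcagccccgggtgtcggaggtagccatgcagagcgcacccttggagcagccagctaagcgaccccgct
Ifit3: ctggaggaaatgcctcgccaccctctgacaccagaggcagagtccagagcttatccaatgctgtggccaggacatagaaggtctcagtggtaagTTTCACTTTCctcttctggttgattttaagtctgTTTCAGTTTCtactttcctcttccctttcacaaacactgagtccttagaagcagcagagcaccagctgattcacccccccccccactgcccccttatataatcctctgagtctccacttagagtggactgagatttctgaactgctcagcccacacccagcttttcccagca
Ifit3b: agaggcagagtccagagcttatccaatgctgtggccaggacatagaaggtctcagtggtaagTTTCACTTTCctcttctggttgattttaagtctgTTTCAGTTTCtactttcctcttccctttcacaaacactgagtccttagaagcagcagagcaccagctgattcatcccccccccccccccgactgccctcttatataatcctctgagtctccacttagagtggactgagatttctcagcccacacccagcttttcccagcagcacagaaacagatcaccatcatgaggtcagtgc

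Each library held between 14067259 and 18923751 counts. Levels are given as CPM, counts relative to library sizes scaled by trimmed mean of M-values over all 16 libraries, and a floor of 3 counts corresponds to between 0.149 and 0.223 CPM. The MSC libraries carried both mesenchymal stromal markers (11 genes, summed level 13193 to 17491 CPM) and macrophage and monocyte markers (11 genes). The macrophage list summed to 20216 and 17013 CPM in the WT and 7281 and 11050 CPM in the K74R MSC libraries, above the 4371 to 5085 CPM of bone marrow, with Ly6c2 at 0 in 3 of the 4 MSC libraries. Of 7 epithelial markers, the tumors held a summed 4.55 to 8.95 CPM, with Krt18 at 0 in 4 of 6 tumor libraries, although the cell line is labelled a colon adenocarcinoma. The column names of the WT tumors and of the WT MSC samples carry letters that those of the K74R samples lack or replace, of unstated meaning, and such a difference cannot be told apart from genotype. These are bulk samples, in which fewer cells of a type and less RNA per cell cannot be told apart.

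All 34 genes were detected in every tissue, with Oasl1 in MSC the one gene at 0 in a library. Added up, they came to 3295, 3275 and 2965 CPM in WT against 3579, 3064 and 2800 CPM in K74R bone marrow. In MSC the sum was 1124 and 1010 CPM in WT against 833 and 1163 CPM in K74R. In tumors the sum was 4432, 3906 and 4059 CPM in WT against 4240, 3932 and 4099 CPM in K74R. Tumors were thus highest, MSC lowest, and the libraries of the 2 genotypes overlapped in all 3 tissues. Abundant genes weigh most in these sums, which therefore do not give the direction of most genes. In bone marrow Rsad2 alone held 922 to 1078 CPM in WT and 985 to 1277 CPM in K74R. Samhd1 held 325 to 344 CPM in WT and 310 to 410 CPM in K74R MSC.

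**Figure D1:**
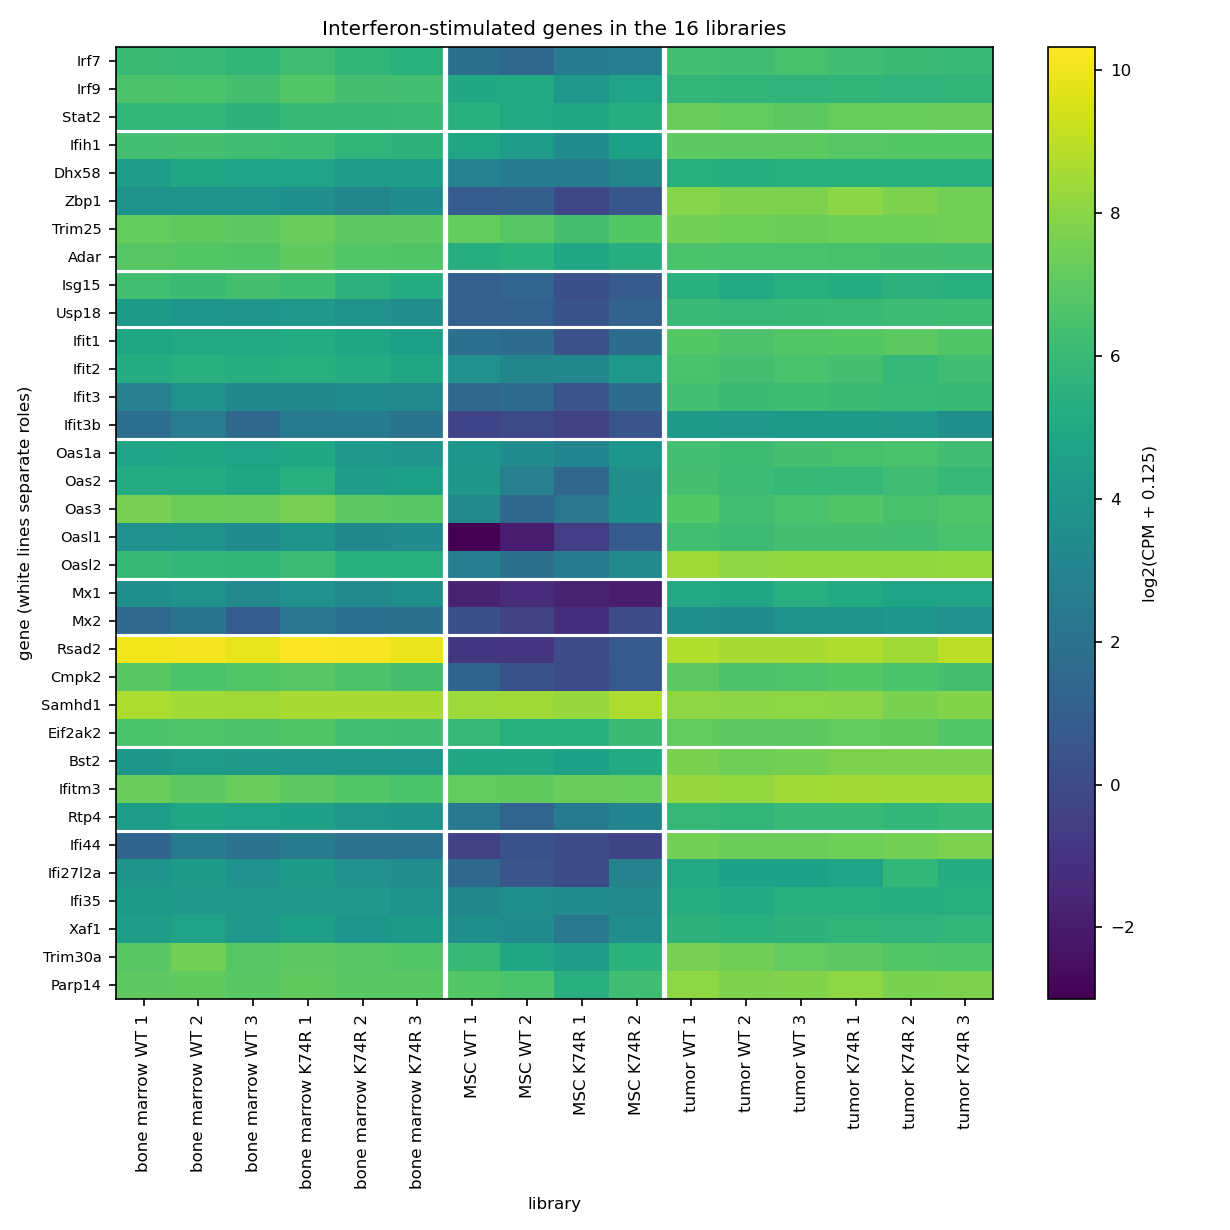
Levels of the 34 interferon-stimulated genes (vertical axis, grouped by role between white lines) in the 16 libraries (horizontal axis), as log2(CPM + 0.125) by colour. The MSC libraries are the darkest for most genes, with Oasl1 and Mx1 lowest, and Rsad2 in bone marrow is the brightest.

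Per kilobase of exon, which allows genes to be compared, Rsad2 was the most abundant of the 34 in WT bone marrow at 235 ± 20 CPM per kb (SD, n = 3), followed by Ifitm3 at 213 ± 25, within that spread, and Isg15 at 102 ± 12. Ifitm3 led in WT tumors at 473 ± 44 CPM per kb (n = 3), ahead of Bst2 at 206 ± 13 and Rsad2 at 93.7 ± 6.4. It led in WT MSC as well at 203 ± 4.5 CPM per kb (n = 2), ahead of Samhd1 at 36.6 ± 1.5 and Bst2 at 33.3 ± 2.2. The lowest were Ifi44 and Mx2 in bone marrow (0.655 ± 0.27 and 0.806 ± 0.36 CPM per kb), Mx2 in tumors (3.39 ± 0.42), and Oasl1 in MSC (0.0261 ± 0.037). Rsad2 therefore went from the head of the order in bone marrow to the third lowest place in MSC, at 0.0970 CPM per kb.

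The tissues were compared in the 8 WT libraries with edgeR's quasi-likelihood test and Benjamini-Hochberg adjustment over 17193 genes, as a description of where the genes are expressed. The 3 comparisons share their WT libraries. Between bone marrow and tumor, 6 of the 34 genes were higher in bone marrow and 26 higher in tumor, at an adjusted p under 0.05 that 73.5% of all genes passed (36.4% higher in bone marrow, 37.1% higher in tumor). The median log2 difference, bone marrow over tumor, was -1.04 for the 34 genes and -0.01 for all genes. Between bone marrow and MSC, 30 were higher in bone marrow and 1 in MSC, where 36.3% and 34.5% of all genes passed (70.8% in all), with a median of 1.89 against 0.06. Between tumor and MSC, 33 were higher in tumor and 1 in MSC, where 34.5% and 32.8% of all genes passed (67.3% in all), with a median of 3.38 against 0.05. For 23 genes all 3 tests passed in the order tumor, bone marrow, MSC. Scaling by library size alone moved the median of all genes by -0.17 (bone marrow over tumor) and 0.20 (tumor over MSC), and among the 34 genes it changed the sign of Cmpk2 only, between bone marrow and tumor.

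**Figure D2:**
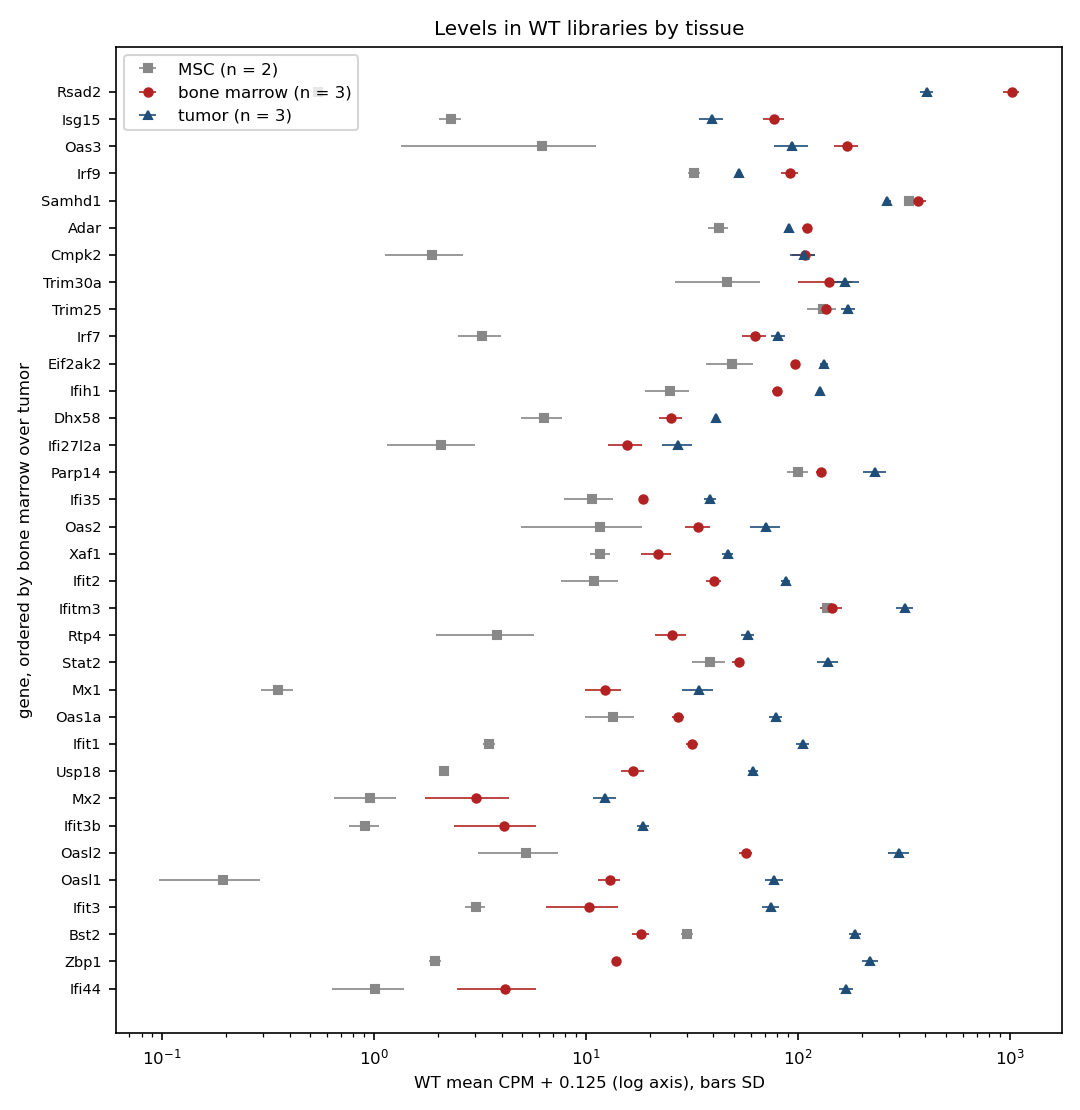
Mean level in the WT libraries of each tissue (horizontal axis, CPM + 0.125 on a log scale, bars SD, n = 3 for bone marrow and tumor and n = 2 for MSC) per gene (vertical axis, ordered by bone marrow over tumor). Rsad2, Isg15 and Oas3 lie highest in bone marrow at the top, and Bst2, Zbp1 and Ifi44 at the bottom lie far to the right in tumors.

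The transcription factors split. Irf9, the DNA-binding subunit of ISGF3, was higher in bone marrow than in tumor by 0.85 on the log2 scale (SE 0.09, adjusted p = 2.454e-05). Stat2, its partner, was lower by 1.35 (log2 -1.35, adjusted p = 8.645e-06). Irf7, the factor that amplifies interferon-alpha transcription, was lower in bone marrow than in tumor by a small margin (log2 -0.32, adjusted p = 0.0445), and stood at 3.65 and 2.58 CPM in WT MSC against 53.2 to 68.2 CPM in bone marrow and 74.7 to 86.9 CPM in tumor.

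Among the sensors and their regulators, Zbp1, which binds Z-form nucleic acid and can trigger necroptosis, showed the widest gap. Its level was 13.5, 14.1 and 13.6 CPM in WT bone marrow, 1.73 and 1.90 CPM in WT MSC and 241, 213 and 205 CPM in WT tumors. The log2 difference of bone marrow over tumor was -3.95 (SE 0.11, adjusted p = 4.96e-09). Ifih1 (MDA5) and Dhx58 (LGP2), sensors of double-stranded RNA, were lower in bone marrow than in tumor by under 2-fold (log2 -0.62 and -0.65), and Adar, which edits double-stranded RNA, was higher by 0.33. Trim25, a ubiquitin ligase that acts on the RIG-I pathway, varied less, at 143, 134 and 130 CPM in bone marrow, 145 and 117 CPM in MSC and 187, 167 and 163 CPM in tumor. Its bone marrow and MSC libraries overlapped in WT (log2 0.09, 95% interval -0.19 to 0.36, adjusted p = 0.551). In the K74R libraries bone marrow was higher (0.51, adjusted p = 0.0133), but the test of the change between genotypes did not pass for Trim25.

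Isg15, a ubiquitin-like modifier, and Usp18, the protease that removes it and that also damps receptor signalling, went opposite ways. Isg15 stood at 78.9, 67.4 and 84.5 CPM in WT bone marrow, 1.98 and 2.38 CPM in MSC and 43.0, 33.3 and 40.9 CPM in tumor, so that it was higher in bone marrow than in tumor (log2 1.03, SE 0.13, adjusted p = 6.345e-05). In the 8 K74R libraries the same difference was at a log2 of 0.35 (adjusted p = 0.167), and the test of the change between genotypes did not pass (adjusted p = 0.374). Usp18 was lower in bone marrow than in tumor (log2 -1.83, adjusted p = 4.91e-07).

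The IFIT proteins bind foreign RNA ends and block translation. All 4 were lower in bone marrow than in tumor, with log2 differences from -1.07 (Ifit2) to -2.82 (Ifit3), and higher in bone marrow than in MSC, from 1.85 (Ifit3) to 3.27 (Ifit1). Ifit3 and Ifit3b share 51.2% and 45.0% of their 50-base windows, and the sources used here do not say how reads that fit both were counted, so their separate values are uncertain.

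Of the OAS family, whose enzymes make 2-5A to activate RNase L, only Oas3 was called higher in bone marrow than in tumor. It stood at 196, 158 and 157 CPM in bone marrow, 9.58 and 2.65 CPM in MSC and 114, 79.5 and 89.7 CPM in tumor (bone marrow over tumor, log2 0.90, SE 0.29, adjusted p = 0.0185). Under 5 of 16 alternative settings this call was lost, among them without bone marrow WT library 1 or tumor WT library 2 or 3, up to an adjusted p of 0.0741. Oasl1, an OAS-like protein that represses Irf7 translation, had the lowest MSC level of all, 0 and 0.136 CPM from 0 and 2 counts, against 13.3, 13.9 and 11.1 CPM in bone marrow and 78.2, 69.1 and 84.1 CPM in tumor. From the summed counts the ratio was 199 for bone marrow over MSC (95% exact interval 54.8 to 1647) and 1186 for tumor over MSC (328 to 9796), intervals that cover counting error only. The fitted log2 differences, 7.50 and 10.04, depend on the prior count. Oas1a shares 57.6% of its windows with Oas1g and is uncertain for that reason.

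The Mx GTPases, which trap viral nucleocapsids, were lower in bone marrow than in tumor (Mx1 log2 -1.42, Mx2 -2.01). Both were near the floor in MSC, at 0.185 and 0.272 CPM for Mx1, from 3 and 4 counts, and 1.05 and 0.612 CPM for Mx2.

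Among the nucleotide-pool and translation effectors, Rsad2 (viperin), which makes the chain terminator ddhCTP, gave the steepest gradient. It stood at 1062, 1078 and 922 CPM in WT bone marrow, 0.433 and 0.408 CPM in MSC, from 7 and 6 counts, and 438, 387 and 393 CPM in tumor. It was higher in bone marrow than in tumor (log2 1.38, SE 0.10, adjusted p = 1.49e-06) and than in MSC (11.25, SE 0.21, adjusted p = 8.70e-09), and higher in tumor than in MSC (9.87, adjusted p = 9.43e-09). Its genomic neighbour Cmpk2, a mitochondrial nucleotide kinase that supplies CTP, had 120, 93.4 and 109 CPM in bone marrow, 2.29 and 1.22 CPM in MSC and 123, 97.5 and 98.9 CPM in tumor. The bone marrow and tumor libraries overlapped for Cmpk2 (log2 0.06, 95% interval -0.29 to 0.41), while bone marrow exceeded MSC (5.95, adjusted p = 5.99e-08). Samhd1, a dNTP hydrolase, was flat by comparison, at 407, 358 and 348 CPM in bone marrow, 325 and 344 CPM in MSC and 273, 252 and 270 CPM in tumor. It was the only one of the 34 lower in tumor than in MSC (log2 -0.35, SE 0.10, adjusted p = 0.0117), a call lost with library size alone, with no filter and without tumor WT library 2, and bone marrow and MSC were not told apart (0.18, 95% interval -0.05 to 0.41). Eif2ak2 (PKR), which stops translation when it binds double-stranded RNA, was lower in bone marrow than in tumor (log2 -0.40, adjusted p = 0.0163).

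Of the membrane-associated factors, Bst2 (tetherin), which holds budding virions, stood at 16.4, 19.7 and 17.8 CPM in bone marrow, 28.6 and 31.5 CPM in MSC and 197, 173 and 188 CPM in tumor. It was the only gene of the 34 lower in bone marrow than in MSC (log2 -0.70, SE 0.12, adjusted p = 0.000390), and its difference from tumor was -3.32 (SE 0.11, adjusted p = 1.04e-08). Ifitm3, which blocks fusion of enveloped viruses in endosomes, had 154, 125.3 and 155 CPM in bone marrow, 140 and 135 CPM in MSC and 312, 296 and 354 CPM in tumor. Bone marrow and MSC overlapped for it in WT (log2 0.11, 95% interval -0.17 to 0.38), whereas in the K74R libraries bone marrow was lower (-0.45, adjusted p = 0.00714). Rtp4, an interferon-induced receptor chaperone, was lower in bone marrow than in tumor (log2 -1.14) and higher than in MSC (2.80).

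Ifi44, an interferon-induced cytoplasmic protein, had the largest difference between bone marrow and tumor of all 34 genes. It stood at 2.30, 5.67 and 4.08 CPM in bone marrow, 0.618 and 1.16 CPM in MSC and 184, 162 and 161 CPM in tumor (bone marrow over tumor, log2 -5.34, SE 0.26, adjusted p = 1.00e-07, and tumor over MSC, 7.56, adjusted p = 2.13e-07). Ifi27l2a, Ifi35, Xaf1 (a partner of XIAP) and Parp14 (an ADP-ribosyltransferase) were lower in bone marrow than in tumor, by -0.76 to -1.05 on the log2 scale. Trim30a, a TRIM protein of immune cells, had 120, 186 and 115 CPM in bone marrow and 190, 174 and 138 CPM in tumor, which overlapped (log2 -0.20, 95% interval -0.77 to 0.36), and 60.1 and 32.0 CPM in MSC.

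Genotype was tested within each tissue by the same test. In bone marrow none of the 34 genes passed an adjusted p of 0.05, which 0.773% of 14872 genes passed. At an unadjusted p under 0.05 there were 6 (Ifih1, Ifitm3, Isg15, Rtp4 and Zbp1 with lower and Stat2 with higher K74R values), and 17.8% of all genes reached that. DESeq2, which called 3.58% of all genes, called 2 of the 34, Ifih1 (adjusted p = 0.0258) and Ifitm3 (0.0394). The log2 fold change of K74R over WT was below 0 for 26 of 34 genes (50.1% of all genes), with a median of -0.13 against -0.00 for all genes. The 95% interval lay within 2-fold either way for 32 genes, all but Isg15 and Mx2, which held for 77.7% of all genes. By role, all 5 OAS genes, all 3 membrane-associated factors and both Isg15 and Usp18 had negative values. The other roles were mixed. Negative were 2 of 3 transcription factors, 3 of 5 sensors and regulators, 3 of 4 IFIT genes and 1 of 2 Mx genes. The same held for 2 of 4 nucleotide-pool and translation effectors and 5 of 6 other induced genes.

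Ifih1 had 80.1, 83.7 and 74.8 CPM in WT against 70.7, 52.9 and 48.5 CPM in K74R bone marrow (log2 -0.47, SE 0.13, adjusted p = 0.129). Ifitm3 had 154, 125.3 and 155 CPM in WT against 124.9, 109 and 95.1 CPM in K74R (log2 -0.40, SE 0.11, adjusted p = 0.135). For both genes the K74R libraries lay below the WT libraries, as they did for Zbp1, the third of the 34 with this separation, which 10.8% of all genes showed. Zbp1 had 13.5, 14.1 and 13.6 CPM in WT against 12.4, 8.16 and 10.9 CPM in K74R (log2 -0.39, SE 0.16, adjusted p = 0.266). Isg15 had 78.9, 67.4 and 84.5 CPM in WT against 71.7, 46.5 and 37.9 CPM in K74R (log2 -0.56, SE 0.20, adjusted p = 0.195). Its first K74R library lay among the WT values and the other two below them. Stat2 was the only one whose K74R libraries all lay above WT (11.6% of all genes), with 53.7, 55.1 and 48.5 CPM in WT against 59.8, 61.0 and 63.1 CPM in K74R (log2 0.23, SE 0.08, adjusted p = 0.191).

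**Figure D3:**
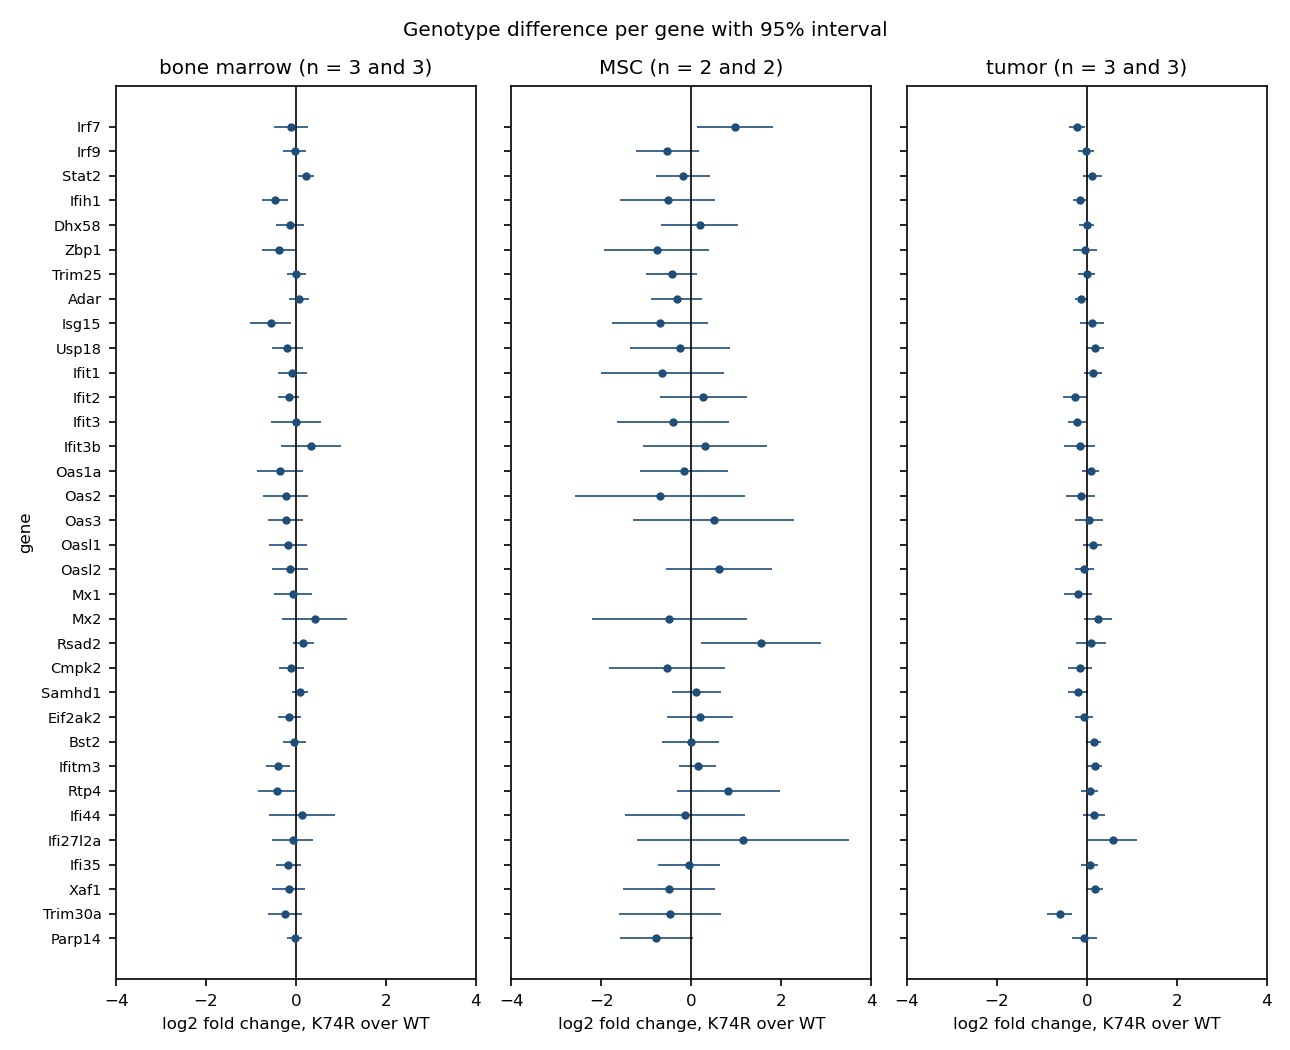
Log2 fold change of K74R over WT (horizontal axis) with its 95% interval for each gene (vertical axis) in bone marrow and tumor (3 libraries per genotype) and MSC (2 per genotype, Oasl1 and Mx1 not tested). Intervals are widest in MSC, and in bone marrow most points lie left of 0.

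The bone marrow values differed between the K74R libraries. Of the 34 genes, 30 were highest of the 3 K74R libraries in library 1, and the median over the genes of the log2 ratio to the WT mean was 0.12 in K74R library 1, -0.23 in library 2 and -0.33 in library 3. The WT libraries gave 0.02, 0.08 and -0.10. Without K74R library 1, 3 genes passed the threshold with lower K74R values, Ifih1 (log2 -0.65, adjusted p = 0.0141), Isg15 (-0.87, 0.0165) and Oas1a (-0.73, 0.0298), where 0.981% of all genes passed. Without WT library 2, Ifitm3 did (-0.51, 0.0336), where 4.49% of all genes passed. Markers of other cells moved between the same groups. The 7 B cell markers summed to 358 to 702 CPM in WT and 737 to 1037 CPM in K74R, and the 10 neutrophil markers to 33257 to 35569 CPM in WT and 27505 to 30039 CPM in K74R. The 8 markers of plasmacytoid dendritic cells, strong producers of type I interferon, summed to 159, 222 and 167 CPM in WT against 209, 236 and 252 CPM in K74R, with positive fold changes for 8 of 8 (4 at an unadjusted p under 0.05, none called, median log2 0.57). The 11 T and NK cell markers summed to 35.7 to 44.2 CPM in WT and 53.3 to 61.5 CPM in K74R, with positive fold changes for 10 of 11. No marker of these 4 lists was at 0. In K74R library 1 the B cell and neutrophil sums were 737 and 30039 CPM. Their part in the values of the 34 genes was not tested.

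**Figure D4:**
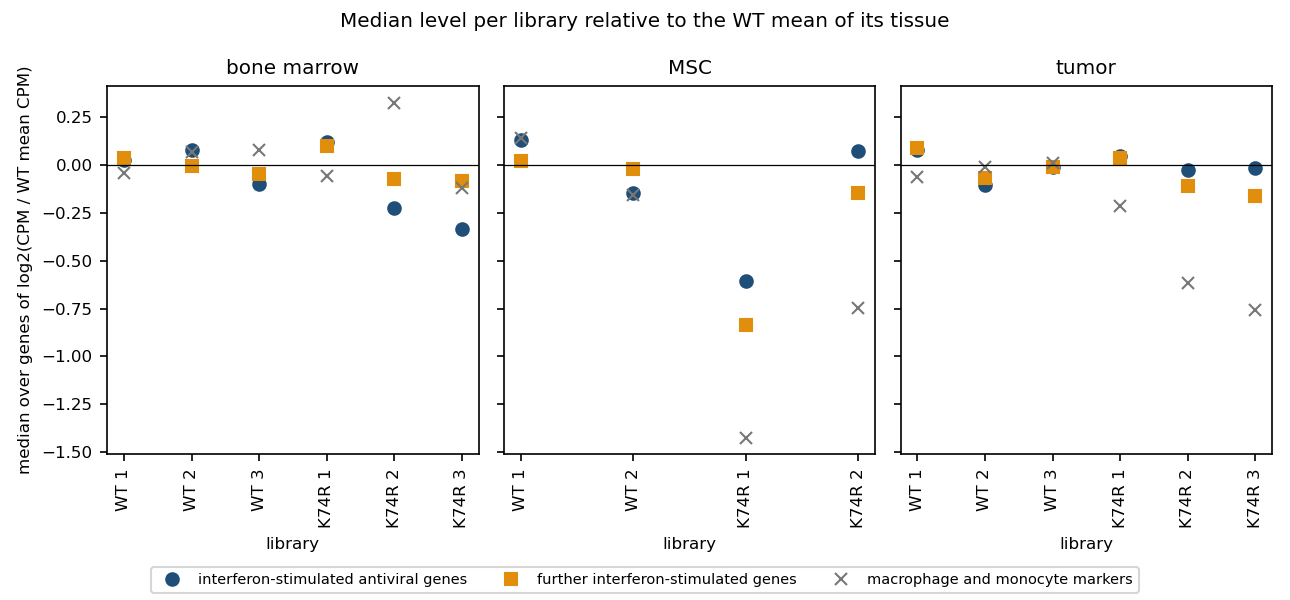
Median over genes of the log2 ratio of CPM to the WT mean of the same tissue (vertical axis) per library (horizontal axis), for the interferon-stimulated antiviral genes, for further interferon-stimulated genes and for macrophage and monocyte markers. K74R bone marrow libraries 2 and 3 and MSC K74R library 1 (-0.60) sit below the others for the antiviral genes, and the tumor libraries lie within 0.11 of 0.

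In MSC none of the 32 genes tested passed, against 3.34% of 14475 genes. Irf7 and Rsad2 reached an unadjusted p under 0.05, both with higher K74R values, and 26.0% of all genes did. The fold change was below 0 for 20 of 32 genes (49.9% of all genes), with a median of -0.18 against 0.00. That median ranged from -0.61 without K74R library 2 to 0.10 without K74R library 1, and was also above 0, at 0.02, without WT library 1, so its sign rests on single libraries. Only 8 intervals lay within 2-fold either way, against 43.1% for all genes, so differences of 2-fold were not excluded for the other 24. Rsad2 had 0.433 and 0.408 CPM in WT against 0.947 and 1.55 CPM in K74R, from 7, 6, 16 and 24 counts (log2 1.55, SE 0.54, adjusted p = 0.15). Irf7 had 3.65 and 2.58 CPM in WT against 5.68 and 6.52 CPM in K74R (log2 0.96, SE 0.34, adjusted p = 0.153). Both genes had no overlap between genotypes, which among higher K74R values held for 4 of 32 genes and for 29.7% of all genes.

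Parp14 had 109 and 92.1 CPM in WT against 40.7 and 76.3 CPM in K74R MSC (log2 -0.78, adjusted p = 0.203). Trim25 had 145 and 117 CPM in WT against 83.4 and 110 CPM in K74R (log2 -0.44, adjusted p = 0.287), and Irf9 had 30.7 and 33.8 CPM in WT against 16.8 and 27.8 CPM in K74R (log2 -0.53, adjusted p = 0.294). When single libraries were left out the log2 values ranged from -1.31 to -0.38 for Parp14, -0.65 to -0.24 for Trim25 and -0.94 to -0.20 for Irf9, furthest from 0 without K74R library 2 and nearest without K74R library 1. The K74R libraries of all 3 lay below WT, as for 6 of 32 genes and 29.5% of all genes. K74R library 1 was the lower of the 2 K74R libraries for 30 of 34 genes and the lowest of all 4 MSC libraries for 21 of 32, where it was the lowest for 31.6% of all genes. It also held the lowest macrophage sum (7281 CPM) and the lowest Ptprc level (84.9 CPM, against 435 and 219 in WT and 218 in the other K74R library). The 5 endothelial markers summed to 290 and 1570 CPM in the WT and 15.3 and 23.9 CPM in the K74R libraries. The part of these cells in the values was not tested. In a model of all 16 libraries, whose spread comes from all tissues, 24.4% of all genes passed in MSC and 4 of the 34 did: Oasl1 (log2 3.88, adjusted p = 0.00356), Irf7 (0.97, 0.0113), Rsad2 (1.55, 0.0186) and Parp14 (-0.77, 0.0197).

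For tumors the genotype is that of the mouse, and the values of host cells and MC38 cells cannot be told apart. In tumors none of the 34 genes passed, against 0.0406% of 14779 genes, and 5 reached an unadjusted p under 0.05, against 11.2% of all genes. The fold change was below 0 for 18 of 34 genes (48.9% of all genes), and the median was -0.00. The interval lay within 2-fold either way for 33 genes, all but Ifi27l2a, against 79.7% of all genes. Trim30a had 190, 174 and 138 CPM in WT against 122, 106 and 102 CPM in K74R tumors (log2 -0.60, SE 0.12, adjusted p = 0.222). All K74R tumors lay below WT for it, as for 4 of the 34 genes and 8.8% of all genes, while Bst2, Usp18 and Xaf1 lay above WT in every K74R tumor, as 7.5% of all genes did. DESeq2, which called 1.37% of all genes, called Trim30a (log2 -0.60, adjusted p = 0.000606), the only one of the 34 that it called in tumors.

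Irf7 had 79.9, 74.7 and 86.9 CPM in WT against 74.9, 67.5 and 64.5 CPM in K74R tumors (log2 -0.22, SE 0.08, adjusted p = 0.395). Ifit3 had 81.4, 68.2 and 73.7 CPM in WT against 67.3, 65.0 and 59.5 CPM in K74R (log2 -0.21, adjusted p = 0.416), and Ifih1 had 131, 124 and 127 CPM in WT against 118, 112 and 112 CPM in K74R (log2 -0.15, adjusted p = 0.426). Ifit3 and Ifih1 did not overlap between genotypes, while Irf7 did. Ifi27l2a, of the ISG12 family of interferon-induced proteins, had 32.2, 24.5 and 24.6 CPM in WT against 27.3, 55.4 and 38.1 CPM in K74R (log2 0.57, SE 0.24, adjusted p = 0.421), with 1 K74R tumor among the WT values. Several marker lists were lower in K74R tumors, with no marker called. The macrophage list summed to 1199 to 1253 CPM in WT and 797 to 1125 CPM in K74R tumors (9 of 11 fold changes below 0, median log2 -0.45), and the endothelial list to 133 to 173 CPM in WT and 105.0 to 131 CPM in K74R (5 of 5, -0.36). The T and NK cell list (9 of 11, -0.43), the erythroid list (7 of 7 tested, -0.64) and Ptprc (-0.67) also had lower K74R values. The neutrophil list went the other way, with 4 of 5 tested fold changes above 0 (median log2 0.25). The mesenchymal stromal list was near 0 (7 of 11 below 0, -0.03). Their part in the values of the 34 genes was not tested.

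Whether the genotype difference itself differed between tissues was tested with interaction contrasts over all 16 libraries and 18191 genes. The 3 contrasts share libraries, and each gene's spread is estimated over all tissues together. Replicates of MSC differed more than those of bone marrow or tumor. Chi-square per degree of freedom between replicate counts was 46.7 and 53 in MSC, against 6.33 to 17.6 elsewhere. The spread of MSC may therefore be understated, and adjusted p-values of contrasts with MSC may be too small. Between bone marrow and tumor none of the 34 genes passed, against 0.0385% of all genes. Ifitm3 had the smallest p (log2 difference of the fold changes -0.58, SE 0.15, adjusted p = 0.228), followed by Isg15 (-0.68, adjusted p = 0.374). Isg15 in tumors stood at 43.0, 33.3 and 40.9 CPM in WT against 38.1, 46.3 and 42.0 CPM in K74R, which overlapped.

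Between bone marrow and MSC, 4 of the 34 genes had a lower K74R over WT ratio in bone marrow, where 10.8% of all genes passed in that direction and 18.8% in either. Oasl1 had 13.3, 13.9 and 11.1 CPM in WT against 14.6, 9.05 and 10.5 CPM in K74R bone marrow, and 0 and 0.136 CPM in WT against 0.533 and 1.61 CPM in K74R MSC. The MSC values come from 0, 2, 9 and 25 counts, a ratio of 16.2 with a 95% exact counting interval of 4.16 to 139, and the fitted difference of -4.07 (SE 0.87, adjusted p = 0.00478) depends on the prior count. Irf7 had 68.2, 65.8 and 53.2 CPM in WT against 74.5, 52.2 and 46.1 CPM in K74R bone marrow, which overlap, beside the higher K74R values in MSC (difference -1.09, SE 0.30, adjusted p = 0.0179).

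Rtp4 had 20.9, 29.5 and 25.7 CPM in WT against 24.5, 17.3 and 15 CPM in K74R bone marrow, and 5.01 and 2.38 CPM in WT against 5.27 and 7.87 CPM in K74R MSC (difference -1.26, SE 0.38, adjusted p = 0.0324). Its span overlaps Masp1 on the other strand, and it shares 11.6% of its 50-base windows with Gm45338. The span of Irf7 overlaps Phrf1 on the other strand. The strand setting is not stated, so the low MSC levels of Rtp4 and Irf7 are uncertain. Adar shares 14.4% of its windows with other genes (Chrnb2), Ifi35 10.4% (Gm11626) and Ifitm3 10% (Ifitm1 and Ifitm2 among them). The span of Irf9 overlaps Rnf31 on the same strand. How shared reads were counted is not stated, so the values of Adar, Ifi35, Ifitm3 and Irf9 are uncertain as well. Ifitm3 had 140 and 135 CPM in WT against 152 and 150 CPM in K74R MSC, against the lower K74R values in bone marrow (difference -0.56, SE 0.17, adjusted p = 0.0355). The Rtp4 call was lost under 7 of 23 alternative settings (adjusted p up to 0.157) and the Ifitm3 call under 9 of 23 (up to 0.0904). Between tumor and MSC, Oasl1 (-3.76, SE 0.87, adjusted p = 0.0125) and Irf7 (-1.19, SE 0.29, adjusted p = 0.0176) passed, where 6.46% of all genes passed in that direction and 10.6% in either. Oasl1 in tumors stood at 78.2, 69.1 and 84.1 CPM in WT against 82.9, 80.1 and 88.9 CPM in K74R, which overlapped. The Irf7 call was lost under 3 of 23 settings for bone marrow and MSC and 2 of 23 for tumor and MSC, with limma-voom among both. The Oasl1 call was lost under 0 of 23 and 2 of 23. Leaving out single libraries moved the counts of genes that passed. Without MSC K74R library 2, 10 genes passed between bone marrow and MSC, 9 of them in the opposite direction (23% of all genes passed), and 8 passed between tumor and MSC, 7 of them in the opposite direction (15.8% of all genes). Without MSC WT library 2, only Oasl1 passed in each (14.8% and 7.85% of all genes). Without bone marrow WT library 3, K74R library 2 or K74R library 3, 2 passed between bone marrow and MSC, with 14.2%, 15.9% and 14.5% of all genes.

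**Figure D5:**
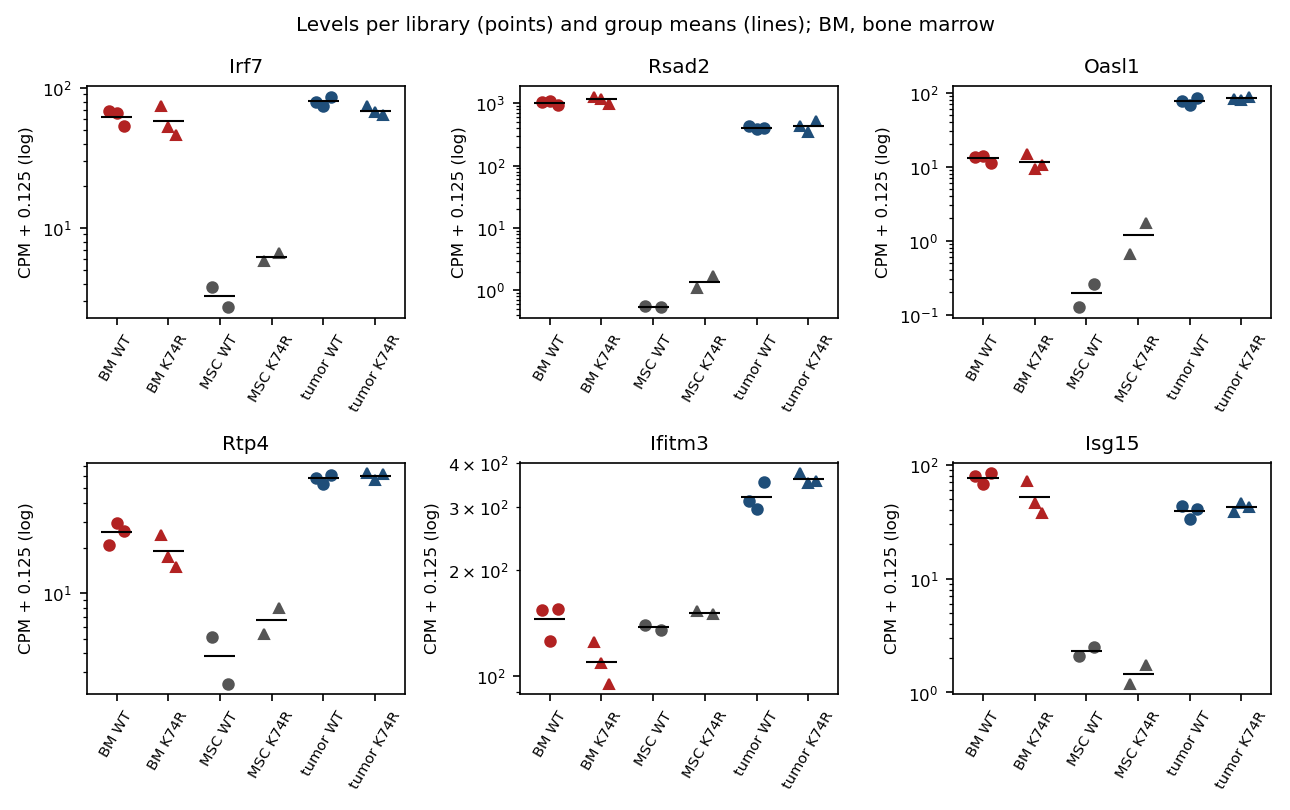
Levels in each library (points, CPM + 0.125 on a log axis) and group means (lines) of 6 genes by tissue and genotype (BM, bone marrow, with circles for WT and triangles for K74R). Irf7, Rsad2 and Oasl1 are higher in both K74R than in both WT MSC libraries, while in bone marrow and tumor their genotypes lie close together.

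The rest of the pathway was read from lists of further genes. The 20 listed type I and III interferon ligand genes were at or near 0, with a summed 0 to 0.471 CPM per library, and none passed the filter on low counts. The receptor subunit Ifnar1 stood at 85.0 to 99.8 CPM in WT bone marrow, 185 to 209 CPM in WT MSC and 73.8 to 77.7 CPM in WT tumors, and Ifnar2 at 75.7 to 82.6, 84.6 to 89.8 and 21.2 to 26.3 CPM. In MSC, the tissue with the lowest level of most of the 34 genes, Ifnar1 was higher than in bone marrow (bone marrow over MSC, log2 -1.05, adjusted p = 9.96e-06), while Ifnar2 was not told apart from bone marrow (-0.10, 95% interval -0.34 to 0.14). Trex1, a DNA exonuclease that restrains the pathway, was listed at 0 in all 16 libraries, so its level cannot be read from this table. Of 14 listed genes of the interferon gamma axis, 4 were called higher in WT bone marrow and 10 in WT tumor (median log2 -1.61). Beside these, 36.4% and 37.1% of all genes passed. Between WT tumor and WT MSC, 10 were called higher in tumor and 3 in MSC (median log2 2.41), beside 34.5% and 32.8% of all genes.

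In bone marrow 2 of 34 tested further interferon-stimulated genes passed for genotype, beside 0.773% of all genes. Ifi203, of the DNA-binding PYHIN family, was higher in K74R (64.9 to 78.0 CPM in WT libraries and 107 to 154 CPM in K74R libraries, log2 0.87, adjusted p = 0.0316). Nmi, a partner of Ifi35, was lower (24.8 to 26.2 CPM in WT libraries and 13.2 to 17.3 CPM in K74R libraries, log2 -0.73, adjusted p = 0.0316), while Ifi35 itself was at -0.17 (adjusted p = 0.509). In MSC 2 of 14 sensing genes were lower in K74R, where 1.29% of all genes were, Tlr9 (5.62 to 8.43 CPM in WT libraries and 0.194 to 0.414 CPM in K74R libraries, the latter from 3 to 7 counts, log2 -4.48, adjusted p = 0.0250) and Unc93b1, which carries nucleic acid-sensing Toll-like receptors to endosomes (301 to 351 CPM in WT libraries and 108 to 132 CPM in K74R libraries, -1.45, adjusted p = 0.0355). Of 32 further interferon-stimulated genes there, Tor3a was lower (-1.42, adjusted p = 0.0361) and Mndal, of the PYHIN family, higher (2.61, adjusted p = 0.0489), where 2.05% of all genes were higher. In the same MSC libraries 8 of 10 tested macrophage and monocyte markers had fold changes below 0 (7 at an unadjusted p under 0.05, 1 called, median log2 -1.14) and 4 of 5 endothelial markers were called lower, and their part in these values was not tested. Ifi203 and Mndal belong to a family of close copies, so reads may be split between them. In tumors none of the further genes passed, and the smallest p belonged to Cxcl11 (log2 1.25, adjusted p = 0.206) and Tlr7 (-0.93, adjusted p = 0.206).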

How the data were processed

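TRIzol RNA went into KAPA mRNA HyperPrep libraries, per the labels' protocols. The authors deposited raw counts per gene for 16 libraries. They used HISAT2 2.1.0, featureCounts 1.6.0, Trimmomatic 0.38 and GRCm38, per the submitters' processing notes. The sources used here do not give the annotation, strand setting or multi-mapping rule, so antisense, overlapping and near-identical genes are uncertain. Identifiers were matched to GENCODE M21 (55536 of 55536). Counts were tested with edgeR 4.0.16 (R 4.3.3): filterByExpr by group, trimmed mean of M-values scaling, quasi-likelihood test, Benjamini-Hochberg adjustment over all genes, threshold 0.05. An SE is the log2 fold change divided by the square root of F. The fits were tested on simulated data with the same spread for every gene and library, in which only well-counted genes were changed. Those data do not cover the larger spread of MSC or genes with few counts. Alternatives included other scalings and filters, DESeq2 1.42.0, limma-voom 3.58.1, a replicate block, the K74R libraries for tissue, and each library left out. The genes, lists and tests were chosen with earlier results of these data known. Named per genotype comparison are the 5 genes with the smallest p, per tissue comparison the 3 largest called differences in each direction and those not called, and per interaction the genes called or else the 2 with the smallest p; others were added as examples of their role after their values were seen. One further gene of the pathway is not reported here.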

Additional observations from a re-analysis of the deposited data

Results flagged for a closer look

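For 4 of the 34 genes the K74R over WT difference was not the same in bone marrow and in MSC by the interaction test of edgeR's quasi-likelihood model, which 18.8% of all genes passed (10.8% with a lower ratio in bone marrow), so that the count does not set these genes apart. The log2 difference between the tissues' fold changes was -1.09 for Irf7, -4.07 for Oasl1, -0.56 for Ifitm3 and -1.26 for Rtp4, each lower in bone marrow. Between tumor and MSC it was -1.19 for Irf7 and -3.76 for Oasl1, each lower in tumor, where 10.6% of all genes passed. The Oasl1 values rest on 2 counts in the WT MSC libraries. These tests estimate the spread over all tissues together, although MSC replicates differed more than the others. Their adjusted p-values may therefore be too small, and within MSC alone none of the genes tested passed. The macrophage list, at 20216 and 17013 CPM in WT against 7281 and 11050 CPM in K74R MSC, and the endothelial list, at 290 and 1570 against 15.3 and 23.9 CPM, moved with genotype in the same libraries, and their part was not tested.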

How the results depend on the processing

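The tissue counts kept within 1.5 times under every alternative run, at 28 to 32 called genes (bone marrow against tumor), 29 to 33 (bone marrow against MSC) and 33 to 34 (tumor against MSC). For genotype, where none of the 34 genes passed, no filter on low counts gave 3 in bone marrow, 2 in MSC and 2 in tumors (3.07%, 11.9% and 2.73% of all genes), DESeq2 gave 2 in bone marrow and 1 in tumors (3.58% and 1.37%), and the single model of all 16 libraries gave 4 in MSC (24.4%). Leaving out each library gave 0 to 3 in bone marrow, 0 in MSC and 0 in tumors. The interaction counts, 4 between bone marrow and MSC and 2 between tumor and MSC, became 8 and 4 with no filter (11.2% and 7.78% of all genes) and 2 and 1 with limma-voom (18.4% and 10.7%), and ranged from 1 to 10 and from 1 to 8 when each library was left out. Signs reversed for genes near 0: Cmpk2 between bone marrow and tumor (-0.12 with library size alone, -0.0133 with no filter, and from -0.00127 to 0.184 when each library was left out, below 0 without tumor WT library 2 or 3), Trim30a there (0.15 in the K74R libraries), Trim25 between bone marrow and MSC (-0.0831 without MSC WT library 2, the lowest of a range up to 0.241 when each library was left out, against 0.51 with an adjusted p of 0.0133 in the K74R libraries) and Ifitm3 there (-0.45 in the K74R libraries). The median log2 genotype difference of the 34 genes in MSC also changed sign, from -0.61 to 0.10 when each library was left out. The cause was not tested.

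The replicate block gave 0 genes in each genotype comparison, 31, 31 and 34 in the tissue comparisons, and 0, 4 and 2 in the interactions. Beside these, 0.908%, 7.84% and 0.088% of all genes passed for genotype in bone marrow, MSC and tumors, 72.1%, 67.2% and 63.1% between tissues, and 0.033%, 17.8% and 9.87% in the interactions. Same-numbered libraries did not all deviate together (correlations of 0.315, 0.154 and -0.13 in bone marrow, -0.201 in MSC, 0.0331, -0.0269 and 0.0853 in tumors). In bone marrow, libraries of differing numbers gave -0.306 to 0.219, below the 0.315 of the libraries numbered 1. In MSC, 2 libraries per genotype force all correlations to the same size. Whether the numbers pair the libraries is therefore not settled by this check. With the MSC numbers crossed, chosen after seeing the data, 0 of the 34 genes and 1943 of all genes passed, against 1135 with the numbers as given. With 2 libraries per group and some genes under 30 counts, MSC limits precision most.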
